A study of Mus musculus with 16 samples.

Results

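The nuclear genes of oxidative phosphorylation were taken as all genes of the authors' deposited table whose symbols begin with Nduf, Uqcr, Cox4 to Cox8 or Atp5, or are Sdha to Sdhd, without "-ps" in the name and with at least 10 mean normalized counts. This gave 87 genes of 30463. They comprise 36 subunit genes of complex I, 8 Ndufaf assembly factors of complex I, 4 genes of complex II, 8 of complex III, 14 of complex IV and 17 of complex V. Ndufa4 and Ndufa4l2 were placed with complex IV, where the Ndufa4 protein resides.

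The study sequenced polyadenylated RNA of whole livers taken at 14 weeks of age from wild-type mice of the C57BL/6N strain, in 4 groups of 4. Mice were injected at 2 weeks with vehicle or with DEN (diethylnitrosamine, a liver carcinogen), and from 6 weeks they ate control diet or a diet labelled 60% high fat. Each injection was thus combined with each diet. The authors' deposited table holds 1 comparison and does not name its sides, so a gene with a positive log2 fold change is called higher on the positive side. Values per animal are not analysed here, because the library codes match no sample label, and each value carries the authors' standard error (SE) instead. In bulk liver, fewer cells of a type and less RNA per cell cannot be told apart.

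Oxidative phosphorylation passes electrons from NADH through complex I, and from succinate through complex II, to coenzyme Q, then through complex III and cytochrome c to oxygen at complex IV. The proton gradient that complexes I, III and IV build drives ATP synthesis by complex V. Most subunits are encoded in the nucleus and imported, and a small set is encoded by mitochondrial DNA. In liver this system takes up the reducing equivalents of fatty acid and amino acid oxidation and supplies ATP for glucose and urea synthesis.

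Nearly all respiratory subunit genes lay close to no change, with a small lean to the positive side. In the authors' deposited table, 2 of the 87 genes passed an adjusted p-value below 0.05, both positive, and 0 were negative (at an unadjusted p below 0.05 there were 10 positive and 0 negative). That is 2.30% of members, beside 6.57% of the 16288 tested genes (3.67% positive and 2.90% negative). For the unadjusted threshold it is 11.5%, beside 19.0% of tested genes (9.64% positive and 9.41% negative). By sign, 66 of 87 members (75.9%) were positive, compared with 49.2% of all tested genes. The median log2 fold change of members was 0.089, with an interquartile range of 0.018 to 0.16, and that of all tested genes was -0.0044. The deposited SEs leave little room for wide changes. The 95% interval of the log2 fold change lay within 0.32 of 0 for 46 members (52.9%), and that of the fold change lay within 1.5-fold for 83 (95.4%) and within 2-fold for 85 (97.7%). Among all tested genes 51.3% lay within 1.5-fold, and among those with 100 or more mean normalized counts 78.1% did. In the same order, 19.5% and 33.5% lay within 0.32 of 0 on the log2 scale, and 75.2% and 94.1% within 2-fold. The median of the mean normalized counts was 1248 for members and 486 for genes with 100 or more. Each interval holds for 1 gene and not for all jointly. The 4 members whose interval reached past 1.5-fold were Ndufa2, Atp5e, Ndufa4l2 and Cox7a1.

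Other measures were set beside this lean. Member transcripts were short, with a median exon length of 1718 bases beside 4413 bases for all tested protein-coding genes. With all tested genes put in 4 bins of exon length, in the shortest bin (up to 2257 bases) 58.4% were positive, with a median log2 fold change of 0.069, and in the longest bin 34.1%, with a median of -0.084. Of the 60 members in that shortest bin 46 were positive, with a median of 0.090. In the longer bins, by rising length, 13 of 15, 4 of 9 and 3 of 3 members were positive. Their medians were 0.103, -0.0045 and 0.134. The Spearman rank correlation of the statistic with exon length was -0.083 among members and -0.22 among all tested genes. After the statistic was corrected for its trends with GC content, length and mean count, 61 of 87 members were positive, beside 49.4% of all tested genes. The same correction lowered the median statistic of members (fold change over SE) from 0.813 to 0.448, beside -0.019 for all tested genes after it. Markers of several liver cell types were mostly negative in sign, beside 49.2% of all tested genes positive in sign and 2.90% called negative. All 10 Kupffer cell markers and all 10 sinusoidal endothelial markers were negative in sign, with medians of -0.56 and -0.41 and 2 and 1 called (Fcna and Timd4, and Bmp2), and so were 9 of 10 hepatocyte markers (median -0.28, with Tat, Cps1 and Ahsg called). By contrast, 5 of 6 tested cholangiocyte markers were positive (median 0.33, 0 called). The part of these cell markers in the lean was not tested.

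The gene with the smallest p was Ndufaf7, which encodes a methyltransferase needed early in complex I assembly. Its mean normalized count in the authors' deposited table was 218, and its log2 fold change was 0.26 ± 0.079 (SE, adjusted p = 0.0225), a 1.20-fold difference with a 95% interval of 1.08 to 1.34. Ndufaf7 (ENSMUSG00000024082) lies on chromosome 17 from 78937136 to 78948052 on the plus strand of GRCm38. Ndufa2, an accessory subunit of the NADH-oxidizing arm of complex I, was the other called gene. In the authors' deposited table its log2 fold change was 0.42 ± 0.13 (SE, adjusted p = 0.0272), or 1.33-fold with an interval of 1.12 to 1.59, at a mean normalized count of 1156. Ndufa2 (ENSMUSG00000014294) lies on chromosome 18 from 36742332 to 36744557, and 66 of its exon bases (11.5%) overlap Tmco6 on the opposite strand, whose mean normalized count in the authors' deposited table was 98.4. Whether reads were counted by strand was not given in the sources used here. When the authors' p-values were adjusted over every gene of the table the Ndufa2 call was lost (adjusted p = 0.0503), as it was after correction for GC content, length and count (0.0857), where Ndufaf7 had 0.0416 and 0.0468. Both calls were lost with the Benjamini-Yekutieli adjustment (0.279 for Ndufa2 and 0.231 for Ndufaf7) and with the statistic divided by the scale of all statistics (0.535 and 0.505).

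Complex I, the entry point of NADH, had 31 of 36 subunit genes positive in sign and 1 called. For this and each later complex, 49.2% of all tested genes were positive in sign and 3.67% called positive. At an unadjusted p below 0.05, 9.64% of all tested genes were positive. The median log2 fold change was 0.094. The 7 nuclear core subunits, which form the electron path from NADH to coenzyme Q, spanned -0.034 to 0.18 in the authors' deposited table with 0 called (1 at an unadjusted p below 0.05). The highest of them was Ndufv1, the subunit that binds NADH and the flavin, at 0.18 ± 0.092 (log2, SE, adjusted p = 0.256) per the authors' deposited table. Ndufs8, an iron-sulfur subunit, was at 0.089 ± 0.063 in the authors' deposited table (log2, SE). The SE of Ndufs8 was the smallest among the members, and its 95% interval ran from 0.98-fold to 1.16-fold. Accessory subunits surround this core. After Ndufa2, the 29 accessory genes were led, by the statistic, by Ndufa3 of the membrane arm at 0.27 ± 0.11 (adjusted p = 0.1096) and Ndufa7 of the peripheral arm at 0.23 ± 0.10 (adjusted p = 0.185), both in log2 units with the SE of the authors' deposited table. The lowest was Ndufa12 at -0.17 ± 0.15 (log2, SE, adjusted p = 0.612, from the authors' deposited table). Its 95% interval ran from 0.72-fold to 1.10-fold.

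Assembly factors put complex I together and are absent from the finished enzyme. Of the 8 Ndufaf genes, 7 were positive in sign, 3 had an unadjusted p below 0.05 and 1, Ndufaf7, was called, with a median of 0.17. Beside them, 49.2% of all tested genes were positive in sign, 9.64% positive at that unadjusted p and 3.67% called positive. Ndufaf1, a chaperone of the membrane arm, was at 0.21 ± 0.084 (adjusted p = 0.116) and Ndufaf3, an early factor of the coenzyme Q module, at 0.27 ± 0.12 (adjusted p = 0.179) per the authors' deposited table (log2, SE). Ndufaf4, the partner of Ndufaf3, was the lowest at -0.032 ± 0.13 (log2, SE, adjusted p = 0.931, from the authors' deposited table). For Ndufaf2, 65.6% of the exon bases overlap the long non-coding RNA gene B230220B15Rik on the opposite strand, so its value of 0.077 ± 0.12 (log2, SE) per the authors' deposited table is uncertain.

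**Figure D1:**
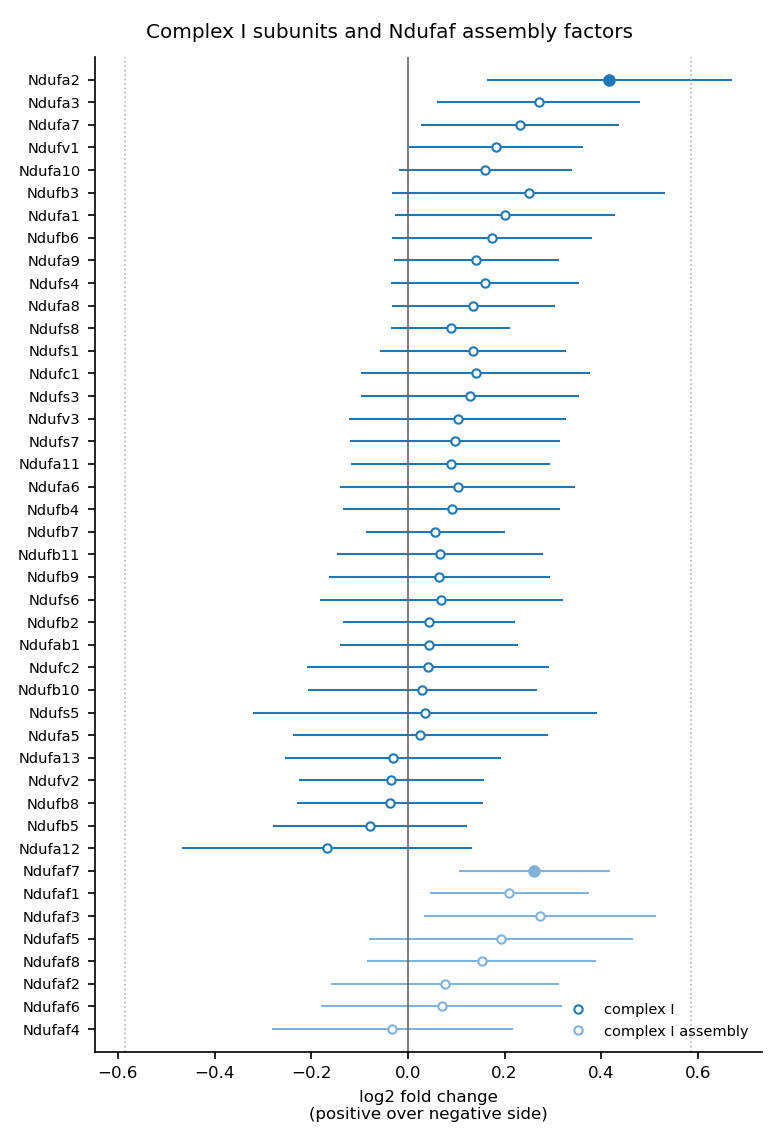
Log2 fold change (x axis, positive over negative side of the authors' comparison) of 35 of the 36 complex I subunit genes and of each Ndufaf assembly factor gene (y axis). Points are the authors' deposited values, bars are 95% intervals from the deposited SE, filled points have an adjusted p below 0.05 and dotted lines mark 1.5-fold. Ndufa2 at 0.42 and Ndufaf7 at 0.26 are the filled points, and 30 of the 35 subunit genes drawn lie right of 0.

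Complex II oxidizes succinate and is the only complex of the chain encoded wholly in the nucleus. Sdha, the flavoprotein that also works in the tricarboxylic acid cycle, was at 0.18 ± 0.090 (log2, SE, adjusted p = 0.257) per the authors' deposited table. Sdhc, a membrane anchor, was at 0.14 ± 0.073 (adjusted p = 0.281), Sdhb, the iron-sulfur subunit, at -0.0020 ± 0.12 (adjusted p = 0.997) and Sdhd, the other anchor, at -0.095 ± 0.11 (adjusted p = 0.707), all log2 with SE from the authors' deposited table. The 4 genes split evenly by sign. The intervals of all 4 lay within 1.5-fold.

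Complex III hands electrons from coenzyme Q to cytochrome c. Its 8 members had 7 positive signs and 0 calls (0 at an unadjusted p below 0.05), with a median of 0.12. Uqcrfs1, the Rieske iron-sulfur protein, was the highest by statistic at 0.17 ± 0.11 (log2, SE, adjusted p = 0.422, from the authors' deposited table). The core proteins Uqcrc1 and Uqcrc2 had nearly equal values of 0.13 ± 0.096 and 0.14 ± 0.093 (log2, SE) per the authors' deposited table. Uqcrh, the hinge protein, was the single negative member at -0.091 ± 0.0996 (log2, SE, adjusted p = 0.687) per the authors' deposited table. Cyc1, the cytochrome c1 gene, is outside the symbol rule and was at 0.11 ± 0.11 (log2, SE, adjusted p = 0.671) per the authors' deposited table.

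Complex IV reduces oxygen, and several of its nuclear subunits exist as pairs of isoforms for liver or for muscle and other tissues. None of its 14 members was called (1 at an unadjusted p below 0.05), and 10 were positive in sign, with a median of 0.076. The subunits of the general or liver form lay in a narrow band in the authors' deposited table, from Cox8a at -0.054 ± 0.11 to Cox7c at 0.17 ± 0.15 (log2, SE). Cox4i1, an early partner of the mitochondrially encoded core, was at 0.064 ± 0.086 and Cox6a1 at 0.103 ± 0.086 (log2, SE, from the authors' deposited table). The most negative statistic was that of Cox7a2l, a factor that joins complexes III and IV into supercomplexes, at -0.16 ± 0.088 (log2, SE, adjusted p = 0.305, from the authors' deposited table). Ndufa4l2, a paralogue of Ndufa4 known as a hypoxia-induced gene, had the widest estimate of all members at 0.98 ± 0.47 (log2, SE, adjusted p = 0.222) per the authors' deposited table. That is 1.97-fold with an interval of 1.04 to 3.71, at a mean normalized count of 61.9. Of the exon bases of Ndufa4l2, 32 (2.92%) overlap Shmt2 on the opposite strand, whose mean normalized count was 4450 in the authors' deposited table. Cox7a1, the heart and muscle isoform, was at -0.38 ± 0.35 (log2, SE, adjusted p = 0.616) with a mean normalized count of 12.5 in the authors' deposited table.

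Complex V makes ATP, and its genes lay about as often on either side. Of 17 members 9 were positive and 8 negative in sign, the median was 0.037, and 0 were called (1 at an unadjusted p below 0.05). The catalytic head genes Atp5b (subunit beta) and Atp5a1 (subunit alpha) had the highest mean normalized counts of the members, 21660 and 19809, with log2 fold changes of -0.043 ± 0.086 and -0.015 ± 0.095 (SE) per the authors' deposited table. Their intervals, 0.86-fold to 1.09-fold and 0.87-fold to 1.13-fold, lay within 0.32 of 0 on the log2 scale. All 5 genes of the small membrane subunits (Atp5k, Atp5l, Atp5md, Atp5mpl and Atp5j2) were positive in sign, with a median of 0.084, whereas 3 of the 4 peripheral stalk genes were negative, with a median of -0.0097. Whether these classes differ was not tested. Atp5k, subunit e, which helps pair the enzymes into dimers, was at 0.28 ± 0.13 (log2, SE, adjusted p = 0.221) and Atp5o, the stalk cap that binds the head, at -0.16 ± 0.12 (log2, SE, adjusted p = 0.479) per the authors' deposited table. The 3 Atp5g genes encode the same mature c subunit of the rotor. Atp5g3 was at 0.17 ± 0.13, Atp5g2 at -0.070 ± 0.13 and Atp5g1 at -0.14 ± 0.11 (log2, SE), with overlapping intervals, in the authors' deposited table.

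**Figure D2:**
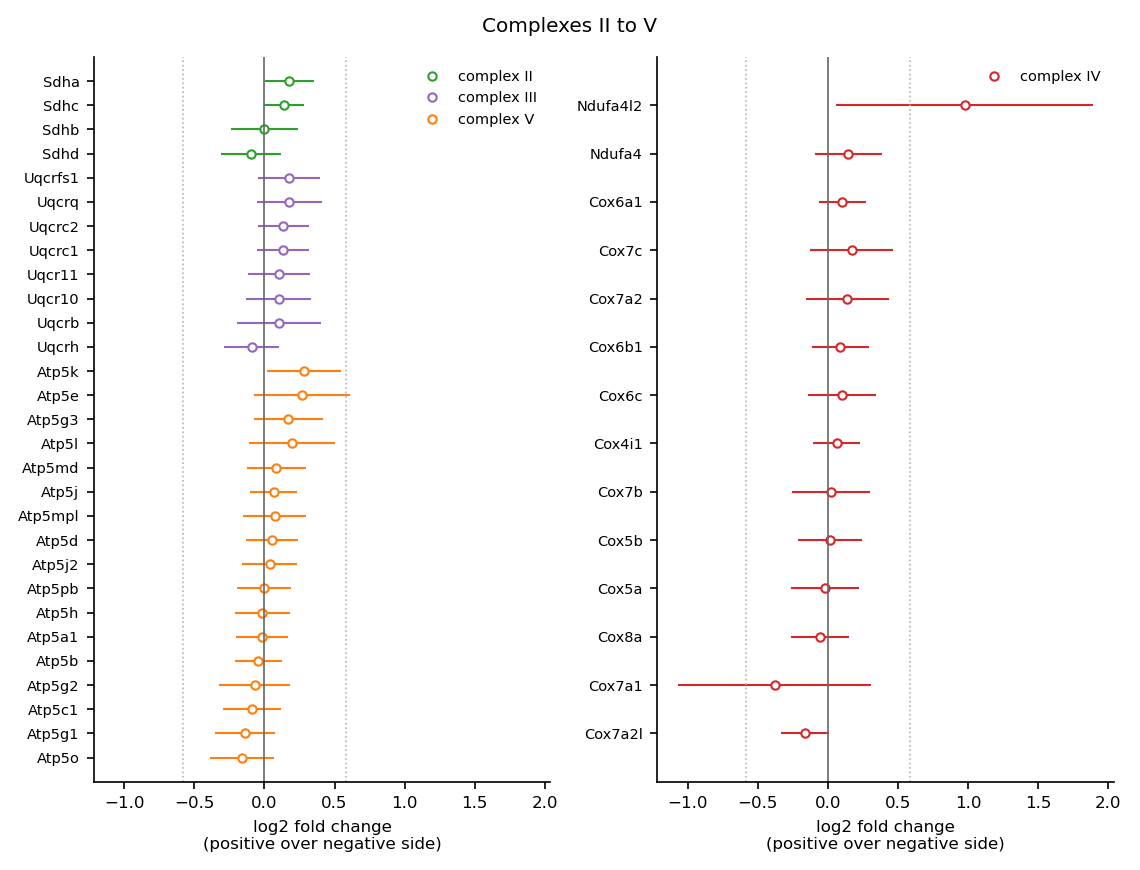
Log2 fold change (x axis, positive over negative side of the authors' comparison) of each gene of complexes II, III and V (left) and IV (right). Points are the authors' deposited values, bars are 95% intervals from the deposited SE, open points have an adjusted p of 0.05 or more and dotted lines mark 1.5-fold. Every point is open, and Ndufa4l2 at 0.98 and Cox7a1 at -0.38 have the widest bars.

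Levels were compared between genes as the authors' mean normalized count per kb of annotated exon. The members held 0.942% of all mean normalized counts, and 38.3% of that share belonged to complex V, 23.7% to complex I, 14.8% to complex IV, 11.7% to complex III and 10.3% to complex II. The median level per kb was 2178 for complex III, 2017 for complex II, 1140.3 for complex IV, 880.4 for complex V, 709.8 for complex I and 136 for the Ndufaf factors. The highest levels per kb were those of Atp5a1 (6319), Cox6a1 (5273) and Atp5b (5112). Within complex II the span from Sdhc to Sdhd was 2.82-fold, within complex III from Uqcrb to Uqcrfs1 5.07-fold and within complex I from Ndufab1 to Ndufa2 30.3-fold. The span was 129-fold within complex V, from Atp5l to Atp5a1, and 226-fold within complex IV, from Cox7a1 to Cox6a1 (9.86-fold without isoforms of other tissues). These ranks depend on the length used. With the longest transcript in place of all exons, the top gene changed in 5 of 6 groups, to Ndufb9, Sdhb, Uqcrq, Cox4i1 and Atp5b.

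The isoform families were dominated by 1 gene each. Atp5g3 made up 86.3% of the summed level per kb of the 3 Atp5g genes, Atp5g2 8.62% and Atp5g1 5.13% (2.20% with the longest transcript). Cox7a2 made up 98.4% of the Cox7a1 and Cox7a2 level, and Ndufa4 98.0% of the level of Ndufa4 and Ndufa4l2. Muscle, testis or lung forms without enough counts to be members were Cox6b2, Cox4i2, Cox6a2, Cox8b and Cox8c, with mean normalized counts of 5.0, 2.11, 0.961, 0.395 and 0.0684 in the authors' deposited table. Each held at most 0.124% of the level per kb of its family (0.204% with the longest transcript, both for Cox6b2). The other 3 symbols below the count minimum, Ndufs6b, Ndufa11b and Cox6c2, are annotated as processed pseudogenes and had 1.43, 0.520 and 0.366 mean normalized counts there. Cox6b2 is the gene nearest below the count minimum, at -1.53 ± 0.69 (log2, SE, adjusted p = 0.185), and Cox7a1 the nearest above it, in the authors' deposited table. The muscle markers Ckm, Acta1, Actc1 and Myh6 had mean normalized counts of 0.253, 0.434, 0.289 and 0.0943 in the authors' deposited table, and the 7 muscle markers found summed to 14.4, of which 11.4 came from Tnnt2.

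**Figure D3:**
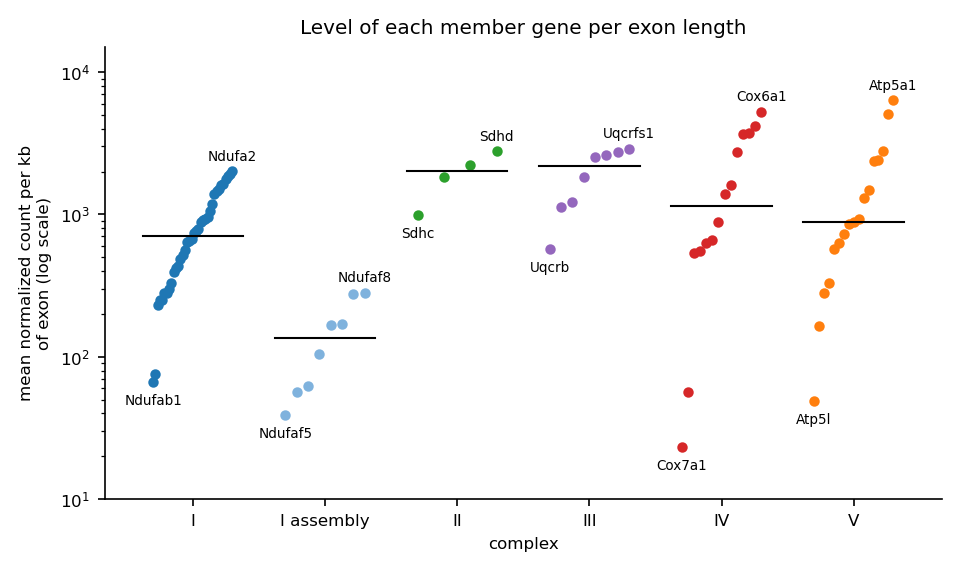
Mean normalized count per kb of exon (y axis, log scale) of each member gene by complex (x axis); each point is 1 gene and the black line is the median of the complex. The medians run from 136 for the Ndufaf factors to 2178 for complex III, and Cox7a1 at 23.4 is the lowest point.

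The factors NRF1, GABP of the ETS family, YY1 and the estrogen-related receptors (ERR) are known to bind promoters of respiratory genes, and part of the member promoters hold letters of their sites. A promoter entry of RefSeq (GRCm38.p6, 250 bases before to 50 after the start, first entry of a gene) was matched for 73 of 87 members and compared with all 27018 entries of that length. The NRF1 letters GCGCATGC stood on either strand of 12 member promoters (16.4%), beside 2.81% of all promoters. The ETS letters CCGGAAGT or ACCGGAAG, which overlap each other, stood in 12 (16.4%), beside 5.09%. The YY1 letters AAGATGGC stood in 10 (13.7%), beside 2.88%. All 10 reached past the start, beside 1.34% of all promoters with such a match. The ERR letters TCAAGGTCA, which contain the shorter AAGGTCA, stood in 2 (2.74%), beside 0.407%, and the shorter letters in 8 (11.0%), beside 4.66%. Any of the NRF1, ETS or YY1 letters stood in 32 members (43.8%), beside 10.1%. The median G and C content was 59.0% in member promoters and 52.7% in all promoters, and the median ratio of observed to expected CpG was 0.833 and 0.388. The NRF1 letters and both ETS letters contain CpG, and the part of base composition in these shares was not tested. A start of another gene on the opposite strand lay within 1000 bases upstream for 26 members (29.9%), against 13.6% of all tested protein-coding genes.

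The stretches that follow hold these letters upstream of the start, and they are shown because they lie wholly outside annotated exons. Capitals mark the searched letters on either strand, and each line runs 5′ to 3′ on the strand of the gene. They lie at chr4:24897940-24898009 (plus strand) for Ndufaf4, chr15:82354337-82354404 for Ndufa6, chr9:44920945-44920992 for Atp5l, chr2:119662835-119662883 for Ndufaf1, chr2:174464166-174464233 for Atp5e, chr10:80406850-80406917 for Uqcr11, chr4:40279616-40279671 for Ndufb6 and chr2:73911340-73911408 for Atp5g3 (minus strand for the other 7). The first 3 hold NRF1 letters, the next 4 ETS letters and the last ERR letters.
Ndufaf4: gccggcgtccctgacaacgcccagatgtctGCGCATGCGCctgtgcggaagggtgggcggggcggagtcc
Ndufa6: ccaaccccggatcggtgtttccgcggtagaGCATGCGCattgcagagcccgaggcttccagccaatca
Atp5l: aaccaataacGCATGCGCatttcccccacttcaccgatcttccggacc
Ndufaf1: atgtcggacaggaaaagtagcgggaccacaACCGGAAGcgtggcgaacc
Atp5e: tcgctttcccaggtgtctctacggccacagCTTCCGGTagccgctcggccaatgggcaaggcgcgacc
Uqcr11: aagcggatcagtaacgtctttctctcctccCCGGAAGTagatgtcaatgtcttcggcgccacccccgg
Ndufb6: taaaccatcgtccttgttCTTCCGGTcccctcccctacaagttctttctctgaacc
Atp5g3: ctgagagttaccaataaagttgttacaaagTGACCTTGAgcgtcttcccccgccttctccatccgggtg

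The log2 fold changes behind these lines in the authors' deposited table were -0.032 ± 0.13 for Ndufaf4, 0.103 ± 0.12 for Ndufa6 and 0.20 ± 0.16 for Atp5l (SE) with NRF1 letters. With ETS letters they were 0.21 ± 0.084 for Ndufaf1, 0.27 ± 0.17 for Atp5e, 0.105 ± 0.11 for Uqcr11 and 0.17 ± 0.11 for Ndufb6 (SE, in the authors' deposited table). None of these 8 genes was called. The distance from the letters to the start ran from 19 bases for Ndufaf1 to 240 for Atp5l within the 250 bases searched, and was 52 for Atp5g3, the main c subunit gene.

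The regulators known to act on such genes were mostly negative in sign. Of 17 tested regulators of respiratory gene transcription 4 were positive in sign and 1 was called negative, with a median of -0.081. The shares over all tested genes were 49.2% positive in sign and 2.90% called negative. By rising exon length, the 4 bins of tested genes had 58.4%, 56.3%, 48.2% and 34.1% positive, with a median of -0.084 in the longest. The regulators were not sorted into these bins. The part of exon length in the signs of the regulators was not tested. Ppargc1a, the coactivator of mitochondrial biogenesis, was the called gene at -1.30 ± 0.22 (log2, SE, adjusted p = 5.9e-07) per the authors' deposited table. Esrra, which encodes an estrogen-related receptor, was at -0.44 ± 0.20 (adjusted p = 0.205), Nrf1 at -0.018 ± 0.11 (adjusted p = 0.957), Gabpa at -0.12 ± 0.087 (adjusted p = 0.486) and Tfam, the mitochondrial DNA transcription factor, at -0.031 ± 0.065 (adjusted p = 0.856), all log2 with SE from the authors' deposited table. The 4 positive regulators were Esrrg at 0.40 ± 0.43, Pprc1 at 0.33 ± 0.15, Gabpb1 at 0.17 ± 0.15 and Ppargc1b at 0.079 ± 0.35 (log2, SE, from the authors' deposited table), and none of them was called. Gabpa and the complex V gene Atp5j start next to each other and share 397 exon bases on opposite strands.

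Subunits encoded by mitochondrial DNA had 4 of 13 genes positive in sign, 0 called and a median of -0.12, beside 0.089 for the nuclear members. The lowest was mt-Nd5, a proton-pumping subunit of complex I, at -0.46 ± 0.20 (log2, SE, adjusted p = 0.153) and the highest mt-Co3 of complex IV at 0.12 ± 0.15 (adjusted p = 0.737), both from the authors' deposited table. The difference between nuclear and mitochondrial genes was not tested. Mean normalized counts were uneven along the mitochondrial genome, with 165489 for mt-Co1 beside 419 for mt-Co2 and 653 for mt-Co3 in the authors' deposited table. Near-identical nuclear copies of mitochondrial DNA exist in the mouse genome, so the values of these genes are uncertain, as is their 5.40% share of all counts.

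Assembly factors outside the Nduf symbols included 6 called genes, led by Cox19 and Cox18. The 5 assembly lists together held 52 tested genes, of which 6 (11.5%) were called positive and 0 negative, beside 1 of 78 structural subunit genes (1.28%) and 3.67% of all tested genes positive. The difference was not tested. Uniting the lists was decided after their values were seen, and their median was 0.14. For complex IV, Cox19, a copper-handling factor, was at 0.85 ± 0.12 (adjusted p = 1.5e-10) and Cox18, which inserts the tail of a core subunit, at 0.59 ± 0.11 (adjusted p = 3.2e-05) among 23 tested genes, log2 with SE from the authors' deposited table. For complex III, Uqcc2, needed for cytochrome b synthesis, was at 0.49 ± 0.085 (adjusted p = 1.9e-06) and Ttc19, a later factor, at 0.21 ± 0.071 (adjusted p = 0.0461) among 7 tested genes with Cyc1, from the authors' deposited table (log2, SE). For complex I, Nubpl, which delivers iron-sulfur clusters, was at 0.42 ± 0.11 (adjusted p = 0.0071) and Tmem126a at 0.21 ± 0.072 (adjusted p = 0.0466) among 14 tested genes, of which 13 were positive, from the authors' deposited table (log2, SE). The lists of complex II assembly (4 genes) and of complex V assembly with its inhibitor (6 genes) had 0 called.

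Genes of cytochrome c, electron entry and coenzyme Q synthesis were mostly positive in sign. All 8 genes of cytochrome c and electron entry, which again include Cyc1, were positive in sign, with a median of 0.24. Beside 3.67% of all tested genes called positive, 2 of them were called, Hccs, the enzyme that attaches heme to cytochrome c, at 0.23 ± 0.069 (adjusted p = 0.0258) and Gpd2, the mitochondrial glycerol-3-phosphate dehydrogenase, at 0.60 ± 0.19 (adjusted p = 0.0326), log2 with SE from the authors' deposited table. Cycs, the cytochrome c gene, was at 0.27 ± 0.12 (log2, SE, adjusted p = 0.210, from the authors' deposited table) and was not called. The coenzyme Q synthesis list had 10 of 13 genes on the positive side by sign, 2 called positive (beside the same 3.67%) and a median of 0.19. They were Coq2 at 0.44 ± 0.078 (adjusted p = 2.3e-06) and Coq4 at 0.46 ± 0.099 (adjusted p = 0.00026) per the authors' deposited table (log2, SE). Mitochondrial ribosomal protein genes, another large nuclear set for the same organelle, had 12 of 77 called positive (15.6%, beside 3.67% of all tested genes) and 70 positive in sign, with a median of 0.17.

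**Figure D4:**
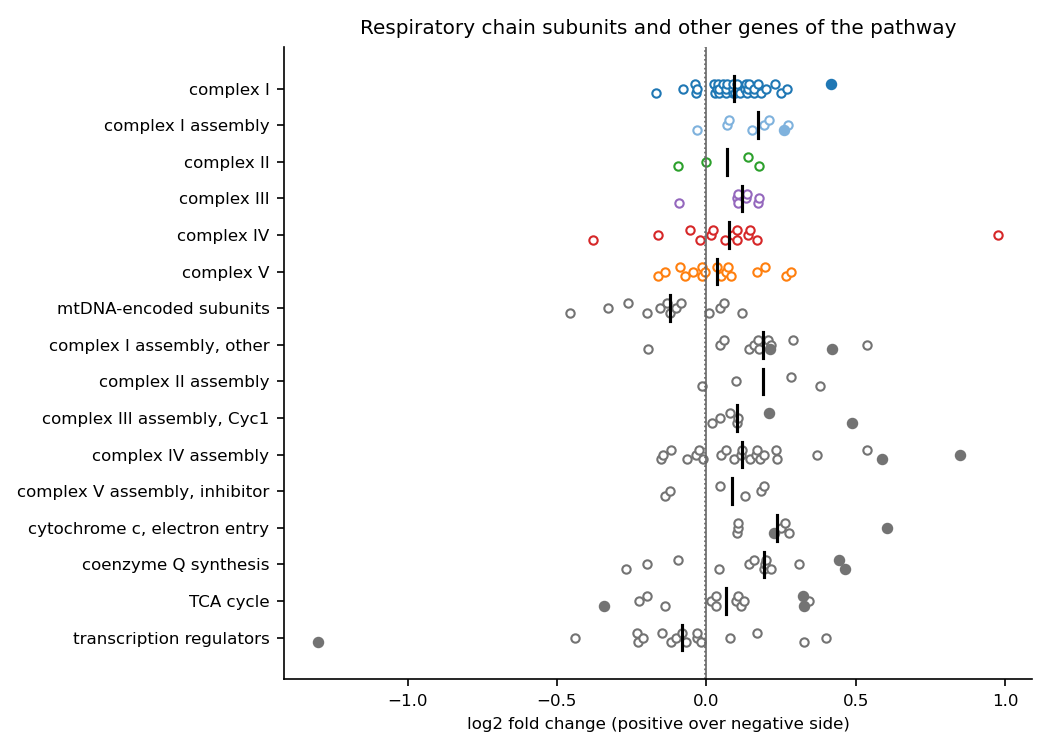
Log2 fold change (x axis, positive over negative side of the authors' comparison) of the member genes by complex (colours) and of tested genes of other lists of the pathway (grey). Each point is 1 gene in the authors' deposited table, filled points have an adjusted p below 0.05, black bars are list medians and the dotted line is the median of all tested genes. Complexes I to V have medians from 0.037 to 0.12, the Ndufaf assembly factors 0.17, the mitochondrially encoded subunits -0.12 and the regulators -0.081.

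The rule leaves out 14 symbols with "-ps". Ndufb1-ps had a mean normalized count of 495 and a log2 fold change of 0.20 ± 0.12 (SE, adjusted p = 0.331) per the authors' deposited table, and Cox5b-ps, a copy of Cox5b, had 90.5 beside 1398 for Cox5b. Ndufb1-ps is annotated with 4 exons as a long non-coding RNA gene of a bidirectional promoter, and the rule matched no gene named Ndufb1. Whether reads were split between Cox5b and Cox5b-ps, or between Ndufb1-ps and other loci, was not measured here, so these values are uncertain. Exons of 32 members overlap exons of another annotated gene, on the opposite strand for 29 of them and on the same strand for 5, some having both. For Atp5o, 243 exon bases (12.3%) overlap another entry named Atp5o on the same strand, so its value is uncertain. On chromosome X lay 3 members, Ndufa1, Ndufb11 and Cox7b, all positive in sign and 0 called, with log2 fold changes of 0.20 ± 0.12, 0.066 ± 0.11 and 0.022 ± 0.14 (SE) per the authors' deposited table.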

How the data were processed

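RNA of whole liver from 16 mice was measured, in 4 groups of 4, using a kit for stranded mRNA libraries, per the labels' protocols. The submitters' processing notes list FastQC, Trimmomatic, HISAT2, HTSeq 0.11.1 and build GRCm38, with no role or order. The authors' deposited table holds 30463 genes. Per the file headers its columns are mean normalized counts (never negative, so a signal), log2 fold changes and their log2 standard errors, a statistic (the authors' score), p-values and adjusted p-values. The authors' tool, model and sides were not given in the sources used here. Checked on the values, the statistic is the fold change over its standard error, the p-value is its 2-sided normal p, and adjusting by Benjamini-Hochberg over the 16288 tested genes returns the adjusted p-value. Library columns (16) match no sample label and were not used, so depth per sample, spread between animals and tests between the labelled groups are not given, and precision is the authors' standard error.

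All 87 members passed the authors' filter on low values and have an adjusted p. A call is an adjusted p-value below 0.05. Intervals are 95% normal intervals. The members and lists were chosen with earlier results of these data known, so counts and medians are descriptions. Named members were those called or with an unadjusted p below 0.05, the highest and lowest statistic and the highest level per kb of each complex, the Sdh genes and the isoform families (31 genes); other genes named were chosen after their values were seen. Exon lengths, GC content and positions came from GENCODE M21, matched for 30388 identifiers. The trend used splines with 4 degrees of freedom and accounted for 6.12% of the variance of the statistic. Python 3.11.15, numpy 2.4.6 and pandas 2.3.3 were used, and the steps were tested on simulated data. The values of 1 member, which stays in all counts and medians, are not reported here.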

Additional observations from a re-analysis of the deposited data

How the results depend on the processing

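No paired analysis was possible because the library columns carry no sample labels, and for the same reason leaving out replicates was not run. Of the 2 members called, 1 (Ndufaf7) remained with the Benjamini-Hochberg adjustment over every gene with a p-value and 1 (Ndufaf7) after correction for GC content, length and mean count, so that complex I subunits had 0 called under both. The count of members called was 0 with the Benjamini-Yekutieli adjustment, 0 at an adjusted p below 0.01 and 0 with the statistic divided by its scale over all genes (1.44), which left 0 for complex I subunits and 0 for the Ndufaf factors. The cause was not tested. Counting structural subunits only gave 1. An adjusted p below 0.10, or adjustment over genes with 10 or more mean normalized counts, gave the same 2 genes. Members called negative, and calls in complexes II, III, IV and V, were 0 under every alternative run; at an unadjusted p below 0.05 there were 10 positive and 0 negative members. With 99% in place of 95% intervals, 17 members in place of 46 lay within 0.32 of 0 on the log2 scale. The median log2 fold change of members was 0.089 under each alternative run except the one that subtracted the median of all tested genes, which gave 0.093. With alternatives chosen after seeing the data, 67 members lay above the median statistic of all tested genes and 61 were positive after that correction, in place of 66.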

Other observations

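In the tricarboxylic acid cycle, which feeds the chain with NADH and succinate, 10 of 14 genes were positive in sign, beside 49.2% of all tested genes. Calls went both ways, with 2 positive and 1 negative, beside 3.67% and 2.90% of all tested genes. In the authors' deposited table Suclg2, the GTP-forming succinyl-CoA ligase subunit, was at 0.32 ± 0.052 (log2, SE, adjusted p = 2.1e-07) and citrate synthase, Cs, at 0.33 ± 0.11 (adjusted p = 0.0386). Ogdh, the oxoglutarate dehydrogenase gene, was called negative at -0.34 ± 0.072 (log2, SE, adjusted p = 0.00019) per the authors' deposited table. The succinate-consuming Sdha beside them was at 0.18 ± 0.090 (SE of the log2 value, authors' deposited table) and was not called.

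Of 8 tested genes of uncoupling and adenine nucleotide exchange 0 were called (0 at an unadjusted p below 0.05) and 4 were positive in sign. Slc25a5, the adenine nucleotide carrier of liver, was at 0.050 ± 0.11 and Slc25a3, the phosphate carrier, at -0.033 ± 0.093, log2 with SE from the authors' deposited table. Ucp2 was at 0.21 ± 0.26 (log2, SE) there, with an adjusted p of 0.741, and Ucp1 had a mean normalized count of 0.0849.

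Other marker lists lay on both sides, beside 49.2% of all tested genes positive in sign. By sign, 4 of 10 stellate cell, 5 of 6 cholangiocyte, 2 of 10 T and NK cell, 2 of 6 B and plasma cell, 1 of 8 neutrophil and 2 of 7 erythroid markers tested were positive, and 0 of any of these lists was called. Among adipocyte markers 3 were tested. Cfd, which encodes the complement protease adipsin, was called positive at 7.93 ± 0.69 (log2, SE, adjusted p = 2.6e-26) per the authors' deposited table. Fabp4 at 0.73 ± 0.31 and Nnat at -0.31 ± 0.29 (log2, SE, from the authors' deposited table) were tested and not called. Their mean normalized counts were 435 and 15.5 there. Adipoq and Plin1, which were not tested, had mean normalized counts of 0.387 and 0.439.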
